A study of Mus musculus with 2 samples.

Results

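Myeloid cells carry a set of activating surface receptors that sense microbes and dying cells, and 5 genes of this kind were described here, out of 28523 genes that the authors listed for all cells. They are the C-type lectin receptor genes Clec4d, Clec4e, Clec4n and Clec5a and the immunoglobulin-type receptor gene Trem1. They were matched by gene symbol out of 6 symbols looked for, and the other one, Clec7a, was not analysed here. All 5 were also among the 21544 genes that the authors listed for neutrophils.

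The cells came from metastases in the liver that were grown from 4T1, a murine mammary carcinoma line without hormone receptors or HER2, and dissected 14 days after injection of 250000 cells into the spleen of female BALB/c mice aged 6 to 8 weeks, whose spleens were then removed. The injected cells carried either a hairpin against Zdhhc17 (shZdhhc17), which encodes an enzyme that attaches palmitate to proteins, or a scrambled hairpin (shSCR). Both hairpins were delivered by lentivirus with puromycin selection, so only the cancer cells, not the host's myeloid cells, carried them. Each group was 1 library pooled from 3 mice, with 21511 cells in shZdhhc17 and 22860 in shSCR, and with 172527305 and 214842365 UMIs (molecule counts) in all. No test between the groups was possible, and the spread between mice is unknown. The 2 libraries had 609 cell barcodes in common, counted after the prefix of each cell identifier was removed. What these shared barcodes reflect was not tested. Levels of single genes per cell, cell type or library were not analysed here, so what follows rests on the authors' flags per gene, their marker table of neutrophil clusters, and the cells of those clusters.

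C-type lectin receptors bind sugars and lipids of fungi, bacteria and damaged cells. Most of the activating ones have no signalling tail of their own and pair with a small adaptor, the Fc receptor gamma chain (Fcer1g) or DAP12 (Tyrobp), which recruits the kinase Syk. In the lectin pathway Syk acts through Card9, Bcl10 and Malt1 on NF-kappaB, and cytokine and chemokine genes follow. Clec4e encodes Mincle, a receptor for mycobacterial cord factor and for the nuclear protein Sap130 released by dead cells, and Clec4d encodes its partner MCL. Clec4n encodes Dectin-2, a receptor for fungal mannans. Clec5a encodes the DAP12-linked receptor MDL-1, and Trem1 encodes a DAP12-linked receptor that amplifies inflammatory responses of neutrophils and monocytes.

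Of the 5 receptor genes, 3 were among the 1000 genes that the authors flagged as most variable over all cells, namely Clec4d, Clec4e and Trem1. Over all genes listed, 3.51% had this flag. Within neutrophils, 2 of the 5 were among the 1000 most variable genes, Clec4e and Clec4n, where the share over all genes of that table was 4.64%. The flag marks genes that the authors used for dimensional reduction. It gives no direction, no level and no cell type. Both shares are over all listed genes, not over genes matched to the receptors in level or cell type.

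Clec4e was the receptor gene flagged in both sets, as were 383 of the 21544 genes in both tables (1.78%). Clec4d and Trem1 had the pattern of 422 genes (1.96%) that varied over all cells but were not flagged within neutrophils. Clec4n had the opposite pattern, shared with 617 genes (2.86%) flagged within neutrophils and not over all cells. Clec5a was flagged in neither set. A gene without the flag may still vary, since the limit is the rank and not a size of effect.

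Clec4n, Clec4d and Clec4e, which had 3 different patterns of the flag, are direct neighbours in the genome. In the GENCODE annotation of the GRCm38 build they lie within 60028 bases of chromosome 6 with no other annotated gene between them. Clec4n (ENSMUSG00000023349.14, 123229843 to 123247021, plus strand) is followed by Clec4d (ENSMUSG00000030144.4, 123262111 to 123275265, plus strand) after 15089 bases. Clec4e (ENSMUSG00000030142.10, 123281789 to 123289870) comes 6523 bases further on and is read from the minus strand, so that Clec4d and Clec4e point towards each other. Clec4b2, another lectin gene on the other side of Clec4n at 25171 bases, had neither flag. Clec5a (ENSMUSG00000029915.14, 40574894 to 40585821, minus strand) lies far from them on the same chromosome, next to the olfactory receptor gene Olfr460.

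Trem1 (ENSMUSG00000042265.13, 48232768 to 48246924, plus strand) is on chromosome 17, 852 bases before Trem3, which had neither flag. Treml4 and Treml2, the next coding genes, had neither flag. A processed pseudogene on the opposite strand lies within introns of Trem1, and it has no row in the authors' gene table. All 5 receptor genes are annotated as protein-coding.

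**Figure D1:**
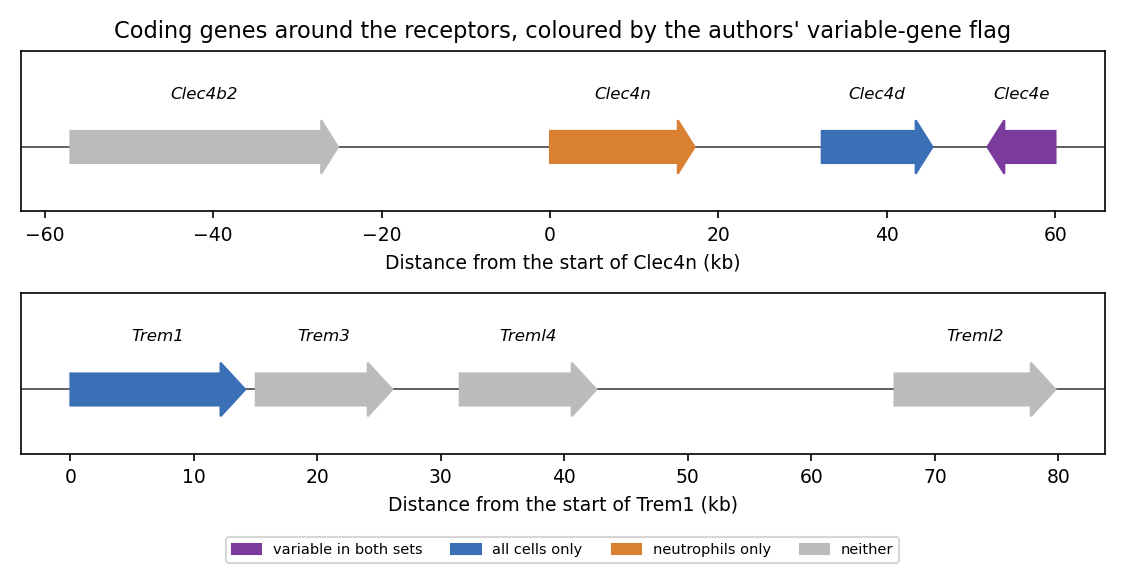
Coding genes around Clec4n (top) and Trem1 (bottom), placed by distance in kilobases from the start of each, with arrows giving the strand and colours the authors' variable-gene flag. Clec4n, Clec4d and Clec4e stand side by side with 3 different colours, and Trem1 is the flagged gene of its row.

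The transcripts of the receptors differ in build. The longest coding transcripts of Clec4d, Clec4e and Clec4n have 6 exons each, that of Clec5a has 7 and that of Trem1 has 4. Their coding parts, without the stop codon, are 657 bases for Clec4d, 642 for Clec4e, 627 for Clec4n, 570 for Clec5a and 690 for Trem1. The part after the stop is long in Trem1 (2279 bases, stop codon included) and Clec4e (1754 bases) and short in Clec4d (448 bases), Clec4n (437 bases) and Clec5a (119 bases).

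The longest exact stretch that Clec4n shared with any of 17 related lectin and Trem genes or the other receptors was 31 bases, with Clec4b1, and 71.45% of the coding bases of the shorter of the pair matched. For the other 4 receptors the longest shared stretch was 12 to 16 bases. How the counting treated reads shared between Clec4n and Clec4b1 is not given in the sources used here. Among the receptors themselves, Clec4d and Clec4n were the closest pair, with 57.6% matching bases. Of the 10 pairs, the 6 between lectins ranged from 50.0% upwards and the 4 with Trem1 reached at most 51.6%, so the ranges overlap. Clec4d with the 5 further Trem genes ranged from 48.1% (Trem2) to 57.4% (Treml2), so the value of the closest pair was not particular to lectins. Olr1, a further gene of the Dectin gene clusters, matched each receptor more than that pair did. Its values ran from 60.1% with Clec4n to 62.3% with Clec5a, and it had 61.3% with Trem1. The level that unrelated genes would reach was not computed, so 57.6% is no measure of kinship.

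The bases before the start sites of Clec4d and Clec4e, convergent neighbours that were both flagged over all cells, and of Trem1, the receptor gene with marker values below, are shown so that their regulatory letters can be compared. Each sequence is the 250 bases before the RefSeq start (GRCm38.p6), read along the gene. Clec4d is at chr6:123261857-123262106 (plus strand), Clec4e at chr6:123289872-123290121 (minus strand) and Trem1 at chr17:48232489-48232738 (plus strand). Capitals mark every match, on either strand, to 4 motifs given after the sequences.
Clec4d: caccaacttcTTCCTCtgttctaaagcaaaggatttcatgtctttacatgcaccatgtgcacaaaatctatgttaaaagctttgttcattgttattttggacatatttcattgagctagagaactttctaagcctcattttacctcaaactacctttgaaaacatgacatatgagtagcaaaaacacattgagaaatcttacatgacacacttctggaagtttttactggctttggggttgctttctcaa
Clec4e: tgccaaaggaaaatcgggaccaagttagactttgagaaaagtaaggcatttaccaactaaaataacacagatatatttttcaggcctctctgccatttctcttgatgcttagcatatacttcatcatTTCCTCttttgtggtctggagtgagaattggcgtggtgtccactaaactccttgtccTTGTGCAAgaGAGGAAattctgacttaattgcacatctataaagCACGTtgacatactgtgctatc
Trem1: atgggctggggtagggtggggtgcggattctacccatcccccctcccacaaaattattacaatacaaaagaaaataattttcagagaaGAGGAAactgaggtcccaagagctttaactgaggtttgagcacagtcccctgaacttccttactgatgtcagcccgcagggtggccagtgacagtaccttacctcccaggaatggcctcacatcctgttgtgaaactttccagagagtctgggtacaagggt

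The motifs searched were the core of the site of PU.1 (GAGGAA), the transcription factor that specifies myeloid cells, and the sites of C/EBP (TTGCNNAA) and AP-1 (TGANTCA), and the core of the hypoxia response element (ACGTG). The PU.1 core was in the windows of all 4 receptor genes with a RefSeq window, once in Clec4d, once in Trem1, and 2 times each in Clec4e and Clec5a. Over all 32851 windows of the same length, 23.3% held it. In Trem1 it begins 162 bases before the start and in Clec4d, on the opposite strand as TTCCTC, 240 bases before it. Clec4e alone of the 4 held a C/EBP match, TTGTGCAA on the opposite strand, which begins 66 bases before the start and lies 2 bases from one of its PU.1 cores. It also held the hypoxia element core as CACGT, 22 bases before the start. Over all windows, 9.56% held the C/EBP motif and 16.6% the hypoxia element core. No window of the 4 held the AP-1 letters, which were in 6.75% of all windows. A match is a description of letters and not a bound site. The motifs were chosen with these sequences at hand.

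Trem1 was the receptor gene listed as a marker of a neutrophil cluster. The marker table gives the 20 genes with the highest marker score in each of 9 clusters, 180 genes in all, which is 0.835% of the genes of the neutrophil table. The marker score is the log2 fold change times a specificity, per the file headers. In the authors' deposited table Trem1 belonged to Migration 2, a cluster the authors named from its leading genes, at rank 18 of 20. Clec4d, Clec4e, Clec4n and Clec5a were not listed for any cluster.

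The authors' deposited table gives Trem1 a log2 fold change of 0.82 in Migration 2 against all other neutrophils. It was detected in 78.5% of the 1305 Migration 2 cells (exact 95% interval 76.1 to 80.7) and in 63.6% of the 9617 other neutrophils (62.7 to 64.6), by the authors' deposited table, the second share computed back from their specificity. The difference is 14.9 percentage points, from cells of both libraries together. The clusters were made from the expression of the same cells, so these values describe the cluster and are no test, and the intervals cover counting error only.

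Trem1 was therefore detected widely in neutrophils. The authors' deposited fraction in Migration 2 was combined with the fraction outside, computed back from their specificity. Together they come to 65.4% of the 10922 neutrophils with Trem1 detected, 7142 cells. Migration 2 held 14.3% of these and 11.9% of all neutrophils, so 85.7% of the neutrophils with Trem1 lay in other clusters. The share of cells with a UMI depends on depth. Over both libraries Migration 2 had a median of 1854 UMIs per cell and the other neutrophils 2095. Within shZdhhc17 the medians were 1494 in Migration 2 and 1384 in the other neutrophils, and within shSCR 2192.5 and 2595, so the order of depth was not the same in both libraries. The part of depth in the Trem1 shares was not tested. The other neutrophils were the more uneven, with quartiles of 1069 and 7638 UMIs against 1273 and 2648 in Migration 2. The part of free RNA in these shares was not tested.

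Among the 20 Migration 2 markers, Trem1 stood low in contrast and high in spread. In the authors' deposited table its log2 fold change was the 19th of 20, where the markers ranged from 0.76 to 1.54 with a median of 1.02. Its detection outside the cluster was the 7th of 20, where the markers ranged from 14.4% to 83.8% with a median of 50.3%. These outside shares were computed back from specificity. Over all 180 listed markers, its log2 fold change was in place 156 by the same deposited table. Its detection outside the cluster, computed back in the same way, was in place 25, and the median was 35.0%.

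**Figure D2:**
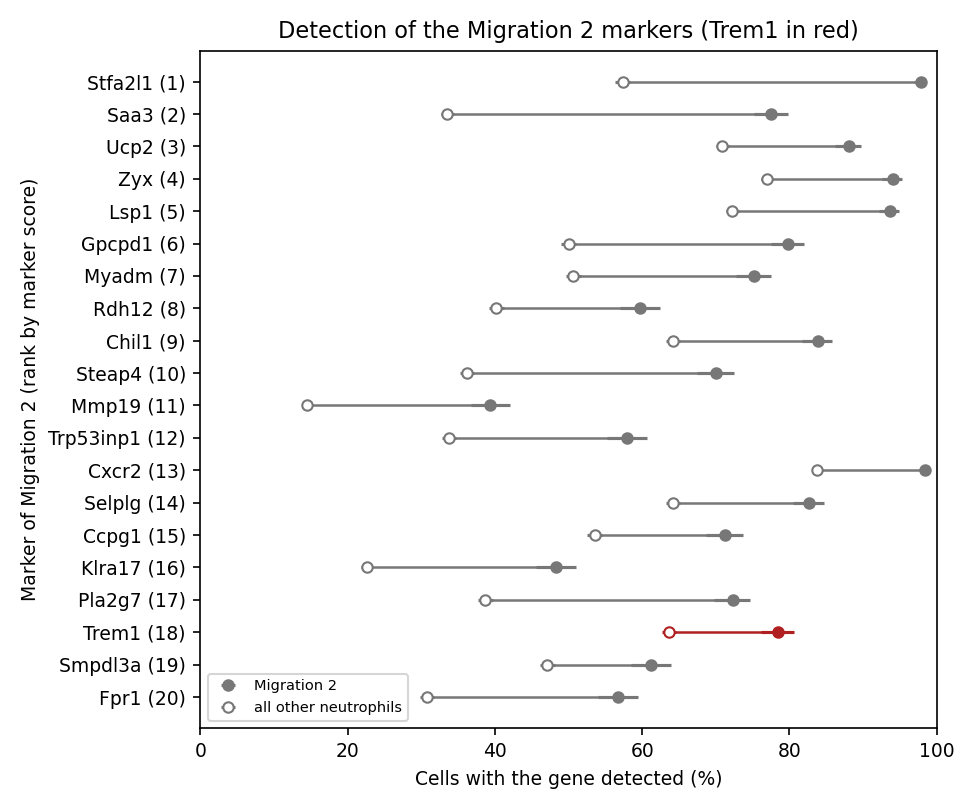
Percent of cells with each of the 20 Migration 2 markers detected, in Migration 2 (filled) and in all other neutrophils (open), ordered by rank, with exact 95% intervals for counting error. The open values were computed back from specificity. Trem1, in red, joins 78.5% to 63.6%, one of the shorter lines, while that of Saa3 joins 77.6% to 33.5%.

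In order of log2 fold change in Migration 2, by the authors' deposited table, Cxcr2 (0.87) and Selplg (0.87) came next above Trem1 and Pla2g7 (0.76) came below it. The shares of other neutrophils in this paragraph were computed back from specificity. Fpr1, a formyl peptide receptor gene, followed Selplg at 0.87 in the authors' deposited table, but was detected in 56.7% of Migration 2 cells and 30.8% of other neutrophils. Cxcr2 encodes the receptor for neutrophil-attracting chemokines and was detected in 98.5% of Migration 2 cells by the authors' deposited table. It was detected in 83.8% of other neutrophils, which comes to 85.6% of all cells labelled neutrophils. Selplg encodes PSGL-1, the selectin ligand of rolling leukocytes, with 82.6% in the authors' deposited table and 64.2% outside, close to the values of Trem1. Pla2g7, which encodes the enzyme that inactivates platelet-activating factor, was at 72.3% and 38.7%. The same cluster held Klra17, a gene of the Ly49 family of C-type lectin-like receptors, picked out after its values were seen. In the authors' deposited table it had a log2 fold change of 1.08 and was detected in 48.3% of Migration 2 cells. Its share of other neutrophils was 22.6%.

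The lists of markers bound what can be said of the receptors that are not on them. Trem1 had a marker score of 0.44 in Migration 2, and the lowest score listed in the authors' deposited table differed widely between clusters. It was 0.23 in Migration 1, 0.41 in NETosis 2 and 0.42 in Migration 2. In the other 6 clusters it was above the score of Trem1, from 0.52 in Inflammation to 2.42 in Early-Stage 1. A receptor gene with the marker score of Trem1 would thus not have been listed in those 6 clusters. For Clec4e and Clec4n, which were flagged as variable within neutrophils, the table says only that their scores lay under these limits or that they were filtered out before.

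**Figure D3:**
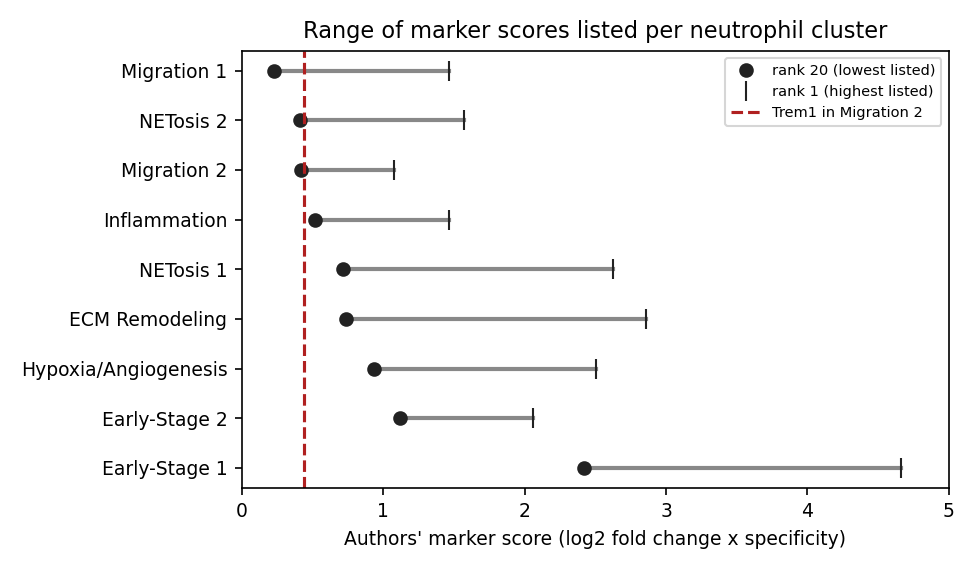
Range of the authors' marker scores listed for each of the 9 neutrophil clusters, from rank 20 (dot) to rank 1 (tick), with the score of Trem1 in Migration 2 as a dashed line. In 6 clusters the whole range lies to the right of the line, from a lowest score of 0.52 in Inflammation to one of 2.42 in Early-Stage 1.

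Being a marker and being flagged as variable were separate for Trem1. It was 1 of 106 listed markers that were not among the 1000 most variable genes of neutrophils, against 74 that were (41.1%). In Migration 2, 5 of the 20 markers had the neutrophil flag and 12 had the flag over all cells. Trem1 was 1 of 7 that had only the flag over all cells. In Hypoxia/Angiogenesis all 20 markers had the neutrophil flag, and in Early-Stage 2 none of the 20 did.

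The groups could be compared only by the number of cells in the cluster that Trem1 marked. Migration 2 held 601 of 4328 neutrophils in shZdhhc17, 13.9% (exact 95% interval 12.9 to 14.95), and 704 of 6594 in shSCR, 10.7% (9.94 to 11.5). The ratio was 1.30 (1.18 to 1.44). The intervals of the libraries did not overlap, but they cover counting error only and not differences between mice. Shares of neutrophils depend on each other, and those of other clusters differed too. Inflammation held 28.6% in shZdhhc17 and 18.1% in shSCR. NETosis 1 held 4.99% and 11.6% and Hypoxia/Angiogenesis 15.6% and 21.0%, in the same order. As a share of all cells the direction turned, with 2.79% (2.58 to 3.02) in shZdhhc17 and 3.08% (2.86 to 3.31) in shSCR, whose intervals overlapped. Neutrophils were 4328 of 21511 cells in shZdhhc17 and 6594 of 22860 in shSCR, so the 2 denominators differed between the libraries. The depth of Migration 2 cells differed too, with a median of 1494 UMIs and 760 detected genes in shZdhhc17 and 2192.5 UMIs and 926 genes in shSCR. The median mitochondrial percent of Migration 2 cells was 0.49% in shZdhhc17 and 1.35% in shSCR, and that of the other neutrophils was 0.707% and 1.80% in the same libraries. The part of depth and mitochondrial percent in the difference was not tested here beyond the filters shown in the plot of Migration 2 shares. More cells of this cluster do not show more Trem1 in a library, since the level per library was not analysed here.

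**Figure D4:**
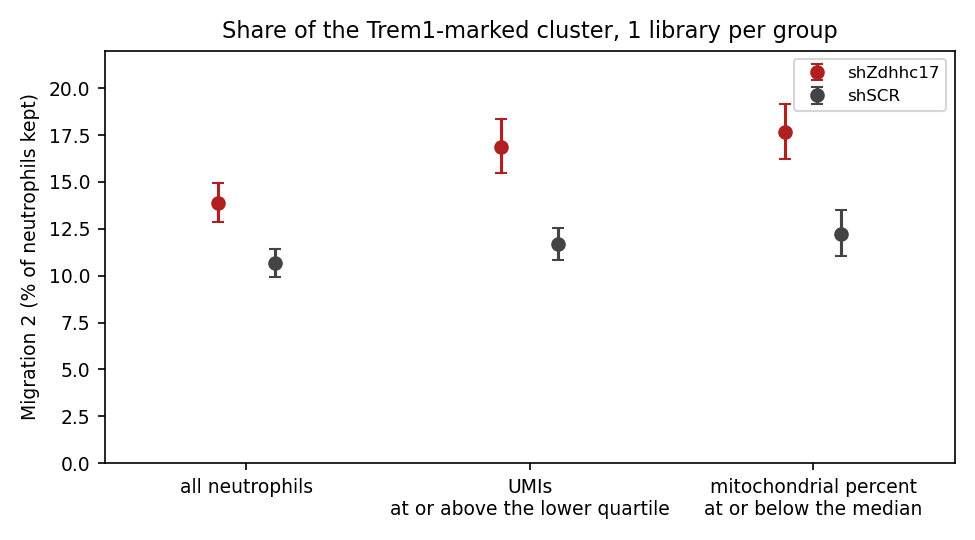
Migration 2 cells as a percent of the neutrophils kept in each library, for all neutrophils, those with at least 1093 UMIs (the lower quartile) and those with a mitochondrial percent at or below the median (1.33%), with exact 95% intervals for counting error and 1 library per group. The shZdhhc17 points (13.9%, 16.9% and 17.6%) lie above the shSCR points (10.7%, 11.7% and 12.2%) in all 3 sets. The filtered sets are parts of the same neutrophils, and each limit kept unequal parts of the libraries. The share of all cells, where the direction turned, is not plotted.

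The partners and relatives of the receptors were described by 7 lists with 50 genes in all. Of 9 adaptors and kinases, including Fcer1g, Tyrobp and Syk, Vav3 was flagged as variable over all cells and within neutrophils, and the other 8 in neither set. Of 6 genes of the Card9 complex and NF-kappaB, 3 were flagged in both sets. These were Malt1, which encodes the protease of the complex, and the NF-kappaB genes Rel and Nfkb1, while Card9, Bcl10 and Rela were flagged in neither. Of the 10 output genes, 7 were flagged over all cells (Il1b, Tnf, Il6, Cxcl1, Cxcl2, Ptgs2 and Nlrp3), and of the 9 in the neutrophil table, 6 (Il1b, Tnf, Il23a, Cxcl2, Ptgs2 and Nlrp3). These counts stand beside 3.51% and 4.64% of all genes, and the lists were drawn up with earlier results of these data known. Output genes have many other inducers.

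Among relatives of the receptors, of 12 further genes of the Dectin gene clusters, 1 was flagged over all cells, Clec9a, a receptor of cross-presenting dendritic cells. Within neutrophils 3 were flagged, Clec4a3, Clec1a and Clec12b. Of 5 further Trem genes, none was flagged over all cells, and none of the 4 in the neutrophil table was flagged there. Of 6 lectin genes of macrophages, dendritic and sinusoidal cells, 3 were flagged over all cells, Mrc1, Clec4f and Clec4g, which encode the mannose receptor, a Kupffer cell lectin and a lectin of liver sinusoidal endothelium. These 3 were not in the neutrophil table, and of the 3 lectins that were, none was flagged. Over all 31 listed gene symbols that begin with Clec, 6 were flagged over all cells and 5 of 24 within neutrophils, and Clec4e was the 1 gene in both. The 6 include the receptors Clec4d and Clec4e, and the 5 include Clec4e and Clec4n. All counts of this paragraph stand beside 3.51% of all genes over all cells and 4.64% within neutrophils.

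**Figure D5:**
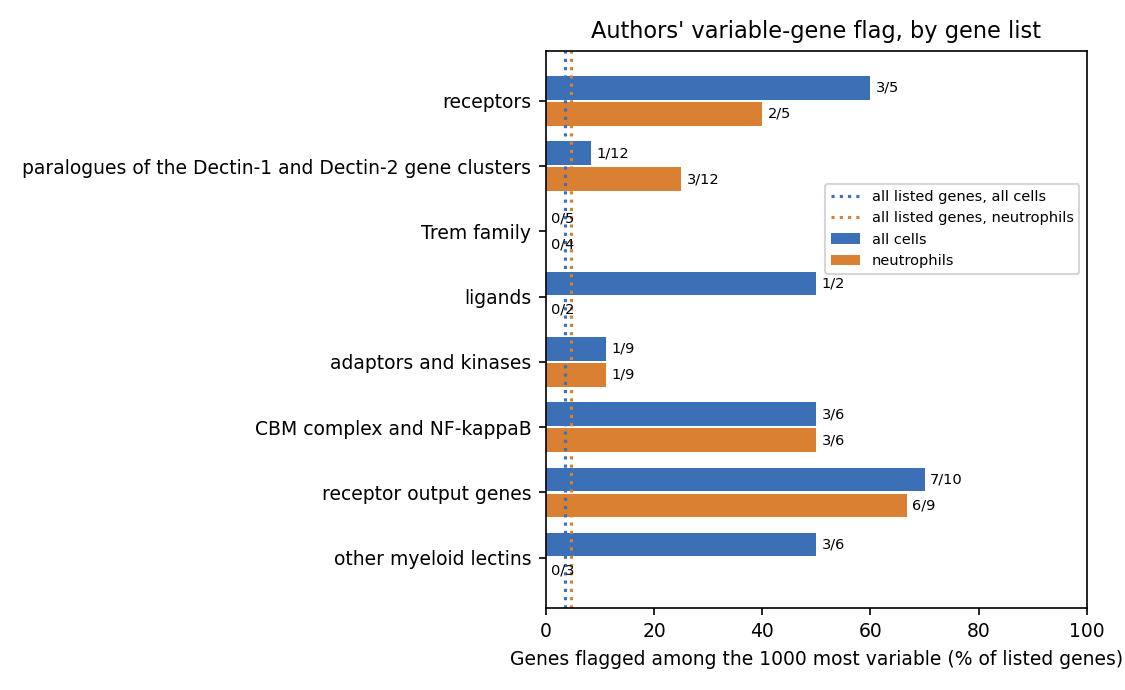
Percent of listed genes flagged among the 1000 most variable over all cells (blue) and within neutrophils (orange), for the 5 receptors and 7 lists, with counts beside the bars and dotted lines for all genes (3.51% and 4.64%). The receptors stand at 3 of 5 and 2 of 5, and the output genes at 7 of 10 and 6 of 9.

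Of these 50 genes, 45 were in the neutrophil table, and 3 of them were markers of neutrophil clusters, beside 0.835% of all genes of that table. Pglyrp1, whose peptidoglycan-binding protein is a ligand of Trem1, was listed for NETosis 1 and not for Migration 2. In the authors' deposited table it had a log2 fold change of 1.28 and was detected in 99.6% of NETosis 1 cells. Its share of other neutrophils, computed back from specificity as for the genes below, was 63.9%. This comes to 67.1% of all neutrophils, close to the 65.4% of Trem1. These 2 shares are over the same cells. NETosis 1 cells had a median of 8252 UMIs, against 1854 in Migration 2. The shares of Pglyrp1 and Trem1 within their own clusters were thus read at unequal depth. Il1b, a cytokine gene downstream of these receptors, was detected in 90.7% of Inflammation cells by the authors' deposited table, with a log2 fold change of 2.05. Its share of other neutrophils was 42.1%. Cxcl2, a neutrophil-attracting chemokine gene, was detected in 78.1% of Hypoxia/Angiogenesis cells in the authors' deposited table, with a log2 fold change of 2.72. Its share of other neutrophils was 31.4%. Inflammation and Hypoxia/Angiogenesis had the fewest UMIs of the 9 clusters, with medians of 1026.5 and 1159. The receptor, its ligand and the output genes were thus listed for 4 different clusters, which does not show that they were absent from the others.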

How the data were processed

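Metastases of 2 groups, 1 library each pooled from 3 mice, were profiled with BD Rhapsody. Per the file headers, the authors corrected the counts for ambient RNA, clustered the cells and named them from markers. Gene symbols follow GRCm38 (mm10), and the submitters' processing notes name Seurat 4.1.0. The deposited cell tables hold counts per cell (UMIs and detected genes) and the percent of mitochondrial UMIs. The authors deposited flags per gene and, per cluster, a log2 fold change (Wilcoxon, pseudocount of 1), the fraction of cells with the gene, and specificity and marker scores. The fraction of the other neutrophils with a gene was computed from the specificity by its stated formula, and the deposited values of that fraction were not used. Planned levels per cell type and protein identities were not computed, since no table used here held the counts or proteins. Coding bases were compared instead (Biopython 1.88). Intervals are exact (Clopper-Pearson, 95%, SciPy 1.17.1). The interval of a ratio is log-normal. The receptors, every list gene in the marker table and the markers next to Trem1 in log2 fold change are named. The genes and lists were chosen with earlier results of these data known. Gene positions are from GENCODE M21, promoters from RefSeq. No doublet caller was run. The motif search, alignment and intervals were tested on simulated data. The alignment was tested only on copies of equal length with substitutions, closer than the pairs reported here.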

Additional observations from a re-analysis of the deposited data

How the results depend on the processing

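The count of receptors flagged as variable was 3 of 5 over all cells, beside 3.51% of all genes. Within neutrophils it was 2 of 5, beside 4.64%, and only Clec4e was in both sets. Under a minimum log2 fold change of 1 for markers, 0 receptors were listed in place of 1, since Trem1 lies at 0.82. The limit on detection in the cluster (50%) kept Trem1. No test across genes was run here. With all cells as denominator, the ratio of Migration 2 shares was 0.907 (0.815 to 1.01) in place of 1.30, from shares of 2.79% in shZdhhc17 and 3.08% in shSCR. With neutrophils below the lower quartile of UMIs left out, the shares were 16.9% in shZdhhc17 and 11.7% in shSCR (ratio 1.45). At a mitochondrial percent at or below the median they were 17.6% and 12.2% (ratio 1.44). The cause was not tested. The limit on UMIs kept 2736 of 4328 shZdhhc17 and 5456 of 6594 shSCR neutrophils, and that on mitochondrial percent 2641 and 2820, so each limit kept unequal parts of the libraries. The identity of the closest pair of receptors was 58.2% over aligned bases, an alternative chosen after seeing the data. Levels per cell type under other scalings were not run. No paired analysis was possible because each group is 1 library.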
